A study of Mus musculus with 16 samples.

Results

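Microglia from the brains of CD163KO mice were compared with microglia from WT mice, pooled over sex and over the injected α-syn preparation. The comparison rests on 8 of the 16 libraries of the study, namely all those whose label gives microglia as the cell type, 4 of them CD163KO and 4 WT. Each CD163KO library was paired with the WT library of the same sex and the same injection, which gave 4 pairs, called F MONO, F PFF, M MONO and M PFF. The question was whether the loss of Cd163 went along with changes of other genes in a cell population that itself held little Cd163 mRNA.

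CD163 is a scavenger receptor of the monocyte and macrophage lineage that takes up haemoglobin bound to haptoglobin and so feeds haem to haem oxygenase and iron to ferritin. It also binds the cytokine TWEAK. In the healthy brain the receptor is known from perivascular and meningeal macrophages, whereas parenchymal microglia carry little of it and are marked by P2ry12, Tmem119 and Sall1. Injected α-syn fibrils (PFF) seed aggregation of the mouse's own α-syn, and monomeric α-syn (MONO) served as the control injection.

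The knockout allele was CD163tm1.1(KOMP)Vlcg, and the controls were WT littermates on C57BL/6N. Mice were 12 weeks old at surgery, received MONO or PFF bilaterally into the striatum, and were killed 2 months later. The labels give 7 WT mice per sex and injection, 5 CD163KO females per injection, 5 CD163KO males given PFF and 4 CD163KO males given MONO, and 200000 to 500000 microglia were sorted as CD11b+/CD45 low/intermediate cells. No group was left without an α-syn injection, so both genotypes are described here only in injected brains. Sequencing in 3 replicates is stated, but there was 1 table per combination of sex, genotype and injection, and neither the labels nor the methods tell whether a table is 1 replicate or a pool. The labels also state that the study left CD163KO MONO males out because their technical replicates disagreed, and they name 2 batches without assigning libraries to them, so batch and genotype cannot be told apart. Since the RNA came from sorted cells in bulk, fewer cells of a type and less RNA per cell cannot be told apart.

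Reads summed to between 8648751 and 18768238 estimated counts per library (RSEM's estimate of the reads that belong to each transcript), with the WT MONO libraries of both sexes the shallowest. Microglial identity was plain in all 8 libraries. The 10 microglial markers had a median FPKM (counts scaled to transcript length and library) between 1229 and 1661, against 0.66 to 11.3 for border-associated macrophages, 0 to 0.46 for neurons and 0 to 0.06 for T, NK and B cells. The medians of other cells were highest for erythroid markers (4.25 to 63.3), neutrophil markers (5.86 to 19.6) and choroid plexus and ependyma (2.18 to 17.9). Both male pairs held a library of another composition (libraries are named by sex, genotype and injection). In M-KO-MONO the 20 most abundant genes took 55.0% of the counts and in M-WT-PFF 67.7%, against 18.4% to 20.7% in the other 6 libraries, and Cst3 alone took 18.3% and 19.7% against 4.63% to 5.54%. TMM scaling factors were 0.552 and 0.283 in these libraries and 1.34 to 1.42 in the others. The WT library of M MONO listed 782 of the 11288 tested genes at 0, the largest number among the 8. The library labelled female CD163KO MONO held 799 counts of genes of the Y chromosome (Ddx3y 421, Kdm5d 205, Eif2s3y 173 and Uty 0). Uty had 16 to 141 counts in the male libraries. The other 3 libraries labelled female held 0 to 2 summed counts and the 4 male libraries 434 to 1997. By this sum, though not by Uty, the library labelled female CD163KO MONO lay within the male range and goes against its label. It is called F-KO-MONO here by its label alone, and every contrast of females with males rests on that label. These facts touch 3 of the 4 pairs, so counts of calls and the medians of the main lists are given below with and without the libraries concerned.

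**Figure D1:**
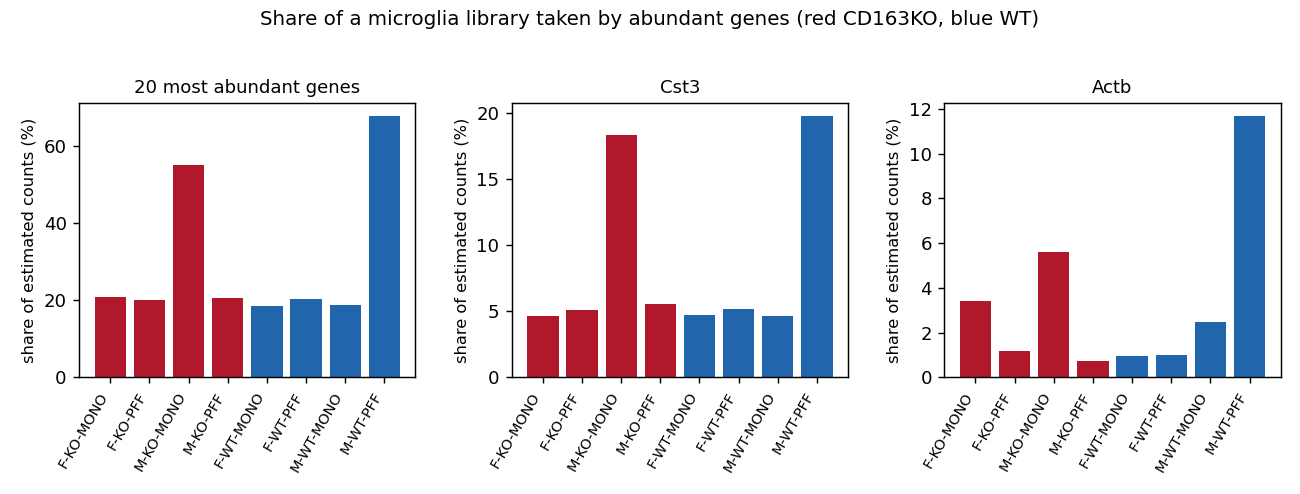
Share of all estimated counts (%, y axes) taken by the 20 most abundant genes, by Cst3 and by Actb in each microglia library (x axes), with CD163KO in red and WT in blue. M-KO-MONO (55.0%) and M-WT-PFF (67.7%) stand above the other 6 libraries for the 20 most abundant genes and for Cst3, and F-KO-MONO (3.41%) and M-WT-MONO (2.48%) come next for Actb.

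Cd163 itself (chromosome 6, 124304636 to 124330529, GRCm38.p6) was near the detection floor in microglia of both genotypes. Its counts in the CD163KO libraries were 23 in F MONO, 11 in F PFF, 10 in M MONO and 5 in M PFF. In the WT libraries, in the same order, they were 46, 101, 0 and 1. Both female WT libraries thus lay above all CD163KO libraries and both male WT libraries below all of them. After TMM scaling the mean was 0.691 ± 0.400 CPM (counts relative to the scaled depth of the library; SD, n = 4) in CD163KO and 2.15 ± 2.41 (SD, n = 4) in WT, with an exact two-sided permutation p of 0.429 (the smallest p this design allows is 0.0286). In the sorted macrophages of the same series, where the gene was abundant in WT (748 to 5275 counts), the CD163KO libraries held at most 1 count. The genotype was therefore visible in the macrophages but could not be read from Cd163 in microglia.

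No gene differed between CD163KO and WT microglia at an adjusted p under 0.05. edgeR's quasi-likelihood test with the pair as a term and Benjamini-Hochberg adjustment called 0 of 11288 genes (0%), and the smallest adjusted p was 0.9996. At an unadjusted p under 0.05 there were 87 genes (0.771% of those tested). DESeq2 called 1 gene, Foxp2, and limma-voom 0, with 390 and 172 genes at an unadjusted p under 0.05. Without the F MONO pair, which holds the library with Y-linked counts, 0 genes were called, and without the M MONO pair, which holds the males the study left out, also 0. A fit without M-KO-MONO and M-WT-PFF, with sex and treatment as separate terms (chosen after seeing the data), called 0 genes as well, with 301 at an unadjusted p under 0.05. The spread behind this was wide, with a common biological coefficient of variation of 0.627 and 3 residual degrees of freedom, so differences smaller than the spread between pairs were not detectable here.

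**Figure D2:**
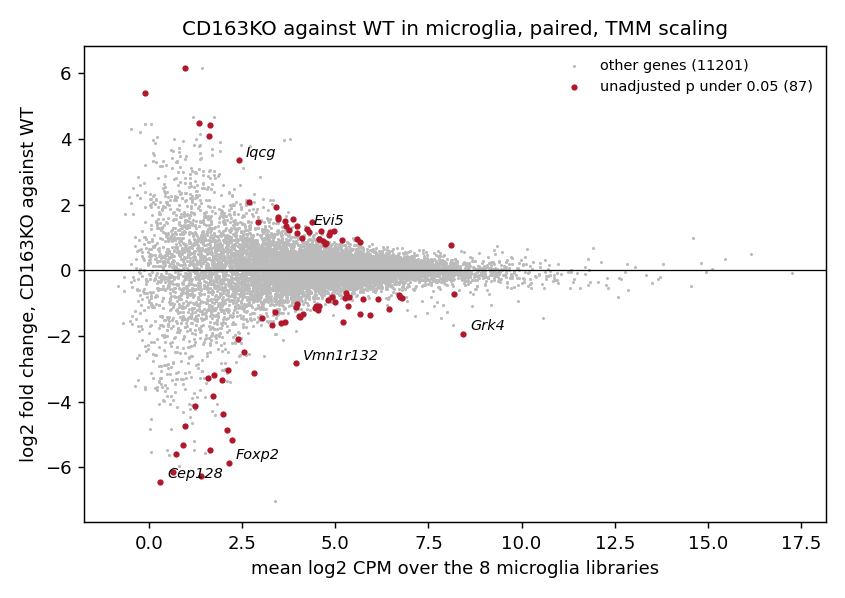
Each point is 1 of the 11288 genes tested, placed by its mean log2 CPM over the 8 libraries (x axis) and its fitted log2 fold change, CD163KO against WT (y axis). The 87 genes with an unadjusted p under 0.05 (red) lie on both sides of 0, and none passed the adjustment.

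The pairs themselves differed in size and did not share a direction. A difference of at least 1 on the log2(CPM + 1) scale was reached by 29.0% of the genes in F MONO, 12.3% in F PFF, 40.4% in M MONO and 22.6% in M PFF. Across the 11288 genes, the difference between genotypes in F MONO and that in F PFF had a Pearson correlation of 0.18. Between M MONO and M PFF the correlation was -0.35, and the other 4 combinations lay between -0.11 and 0.01. The library of another composition was the CD163KO one in M MONO and the WT one in M PFF. These correlations are across genes of single libraries, and genes are not independent replicates.

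CD163KO was higher in all 4 pairs for 517 genes (4.58% of those tested) and lower in all 4 for 389 (3.45%). On log2(FPKM + 1) these counts were 449 and 59, so the balance between the directions depends on the scale. The 4 CD163KO values lay above the 4 WT values for 96 genes (0.85%) and below them for 77 (0.682%).

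The genes nearest to a call, 12 in each direction, had unadjusted p-values of the edgeR test from 0.00448 to 0.0347, and all of them an adjusted p of 0.9996. They are described here by their values and not as changed genes. Values are TMM-scaled CPM and are given in the order F MONO, F PFF, M MONO, M PFF.

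Among the genes with higher values in CD163KO, Evi5, which encodes a regulator of Rab GTPases and of cytokinesis, came first. Its values in CD163KO were 32.7, 28.7, 20.6 and 20.6, and in WT 19.3, 12.6, 5.53 and 9.06. The groups did not overlap, and the log2 fold change was 1.25 ± 0.40 (SE). Enc1, an actin-binding protein of the kelch family, gave 26.2, 49.0, 40.0 and 35.2 in CD163KO and 11.9, 31.5, 13.5 and 18.1 in WT. CD163KO was higher within each pair, but the female CD163KO MONO value lay below the female WT PFF value, so the groups overlapped. Its log2 fold change was 1.07 ± 0.35 (SE).

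Mitochondrial and cytosolic housekeeping functions were represented by Dnajc11, a protein of the mitochondrial cristae machinery, and Blmh, a cytosolic cysteine protease. Dnajc11 stood at 59.8, 72.4, 51.7 and 64.0 in CD163KO and at 29.0, 45.6, 17.9 and 43.2 in WT, a log2 fold change of 0.95 ± 0.31 (SE). Blmh stood at 71.2, 60.5, 74.0 and 54.1 in CD163KO and at 32.5, 43.2, 33.2 and 35.5 in WT, a log2 fold change of 0.85 ± 0.30 (SE). For both genes every CD163KO library exceeded every WT library. Blmh was the steadier of the pair within WT, where all 4 values lay between 32.5 and 43.2.

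Ripk1, the kinase that links the TNF receptor to NF-κB and to regulated cell death, measured 63.5, 35.2, 30.2 and 32.7 in CD163KO and 44.0, 21.5, 5.19 and 14.5 in WT. CD163KO was higher in each pair, the groups overlapped through the WT F MONO value, and the log2 fold change was 1.21 ± 0.42 (SE). Rrm1, the large subunit of ribonucleotide reductase, was separated by the M PFF pair only barely, at 12.33 in CD163KO and 12.27 in WT, while the other CD163KO values were 21.8, 17.3 and 20.0 and the other WT values 6.20, 7.58 and 2.43. Its log2 fold change was 1.50 ± 0.60 (SE). Also in this group were Pomk (a kinase of dystroglycan glycosylation), Iqcg (a ciliary protein), Atxn1 (a polyglutamine protein that acts in transcriptional repression), Prmt7 (an arginine methyltransferase) and Gtf3c5 (a subunit of the RNA polymerase III factor TFIIIC), with log2 fold changes of 1.46, 3.34, 1.23, 0.93 and 0.97.

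In 10 of these 12 genes the lowest of the 8 libraries was M-WT-MONO, and in the other 2 it was F-WT-MONO. M-WT-MONO was the lowest for 48.0% of the 517 genes higher in every pair and for 23.8% of all genes tested. For F-WT-MONO these shares were 31.5% and 14.3%. A gene that is higher in CD163KO in every pair has its lowest level in a WT library by construction, so only the order among the WT libraries is a description here. Prmt7 was the 1 gene of the 12 that was not higher in every pair (34.7 in CD163KO and 38.3 in WT in F PFF). Without the M MONO pair the median log2 fold change of the 12 genes was 0.89 in place of 1.20, and 9 of the 12 had an unadjusted p under 0.05. Without the F MONO pair these figures were 1.19 and 5. Without both MONO pairs, which hold the shallow WT libraries, the log2 fold changes were 1.73 for Iqcg, 0.73 for Atxn1, 0.54 for Blmh and 0.61 for Dnajc11. They were nearly unchanged for Evi5 (1.18) and Gtf3c5 (0.94). That fit also leaves out the CD163KO partners, and the part of the shallow WT libraries in these values was not tested.

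Among the genes with lower values in CD163KO, Grk4, a kinase of G protein-coupled receptors, was the most abundant. It measured 83.8, 90.0, 136 and 139 in CD163KO and 707, 143, 240 and 1229 in WT, without overlap, at a log2 fold change of -1.93 ± 0.53 (SE). The WT values spread from 143 to 1229 and the CD163KO values from 83.8 to 139. Vmn1r132, of the vomeronasal receptor family, had the smallest p of all genes (0.00448 in the edgeR test across all genes) and measured 1.90, 0.917, 3.23 and 8.05 in CD163KO and 63.0, 6.10, 28.6 and 9.81 in WT. The log2 fold change was -2.84 ± 0.78 (SE), with overlap between the M PFF value of CD163KO and the F PFF value of WT. The estimated counts of Grk4, Fut8 and 4930512M02Rik were not whole numbers (more than 0.001 above a whole number) in any of the 8 libraries, and those of Vmn1r132 in 87.5% of them, as happens where RSEM divides reads between transcripts. Their values are uncertain to that extent.

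Foxp2, a forkhead transcription factor known from neurons, was listed at 0 in both female CD163KO libraries and stood at 0.101 and 1.21 in the male ones. In WT it stood at 24.0, 1.62, 5.03 and 2.45, so the groups did not overlap and the level in F MONO was far above the other WT levels. The fitted log2 fold change was -5.86 ± 1.98 (SE), with an adjusted p of 0.9996 in edgeR and 0.0478 in DESeq2. Cep128, a centriolar protein, had 3 counts in the 4 CD163KO libraries together and 108 in the 4 WT libraries. The ratio of WT to CD163KO per scaled depth was 53.8 (95% exact interval 17.9 to 265, which covers counting error only). Its WT values were 3.35, 1.53, 1.76 and 2.45 CPM, all of them low. Col25a1, a brain collagen, was listed at 0 in 3 CD163KO libraries and at 1.51 in M MONO, against 1.47, 1.29, 9.38 and 0.566 in WT.

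Immune signalling and transcription among the lower values were represented by Ccrl2, an atypical receptor that binds chemerin, and Mef2d, a transcription factor of the MADS family that microglia express. Ccrl2 measured 27.8, 60.2, 27.8 and 33.8 in CD163KO and 68.1, 113, 63.5 and 37.6 in WT, a log2 fold change of -0.89 ± 0.32 (SE). Mef2d measured 57.7, 70.8, 56.6 and 117 in CD163KO and 148, 130, 67.6 and 205 in WT, a log2 fold change of -0.83 ± 0.29 (SE). Both were lower in each pair, and both groups overlapped. Dennd1b, an exchange factor of Rab35, measured 9.83, 10.8, 6.26 and 13.1 in CD163KO and 24.2, 19.1, 32.5 and 23.6 in WT, without overlap and with a log2 fold change of -1.32 ± 0.45 (SE). The last 4 were Fut8 (the core fucosyltransferase), Dnajb14 (a J-domain protein of the endoplasmic reticulum), Mlxip (a glucose-responsive transcription factor) and the uncharacterised 4930512M02Rik, with log2 fold changes of -1.17, -2.50, -0.74 and -1.58. All 12 were lower in every pair, although 4930512M02Rik by 24.7 against 24.8 in M MONO.

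Leaving out each pair in turn, both male pairs, or M-KO-MONO and M-WT-PFF changed the size of these differences. Their sign stayed, but a gene that goes the same way in every pair keeps it almost by construction. Only the sizes are therefore a description here. Col25a1 had too few counts to be tested without the M MONO pair. For the 12 lower genes the median log2 fold change was -1.75 with all pairs and -1.36 without M-KO-MONO and M-WT-PFF, where 5 of the 12 had an unadjusted p under 0.05. M-WT-PFF was the highest library for 5 of the 12, F-WT-MONO for 3, M-WT-MONO for 3 and F-WT-PFF for 1. Among the 389 genes lower in every pair these shares were, in the same order, 17.5%, 29.3%, 37.3% and 15.9%. M-WT-PFF was the highest for 12.8% of all genes tested. Of the 24 genes, 20 could be tested in macrophages. There 6 had the same direction, and 0 had an unadjusted p under 0.05. The macrophage libraries of M-KO-MONO and M-WT-PFF also stood apart, but the opposite way, with 21.1% and 21.4% of the counts in the 20 most abundant genes against 46.2% to 72.0% in the other 6, and the part of this in the macrophage directions was not tested.

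**Figure D3:**
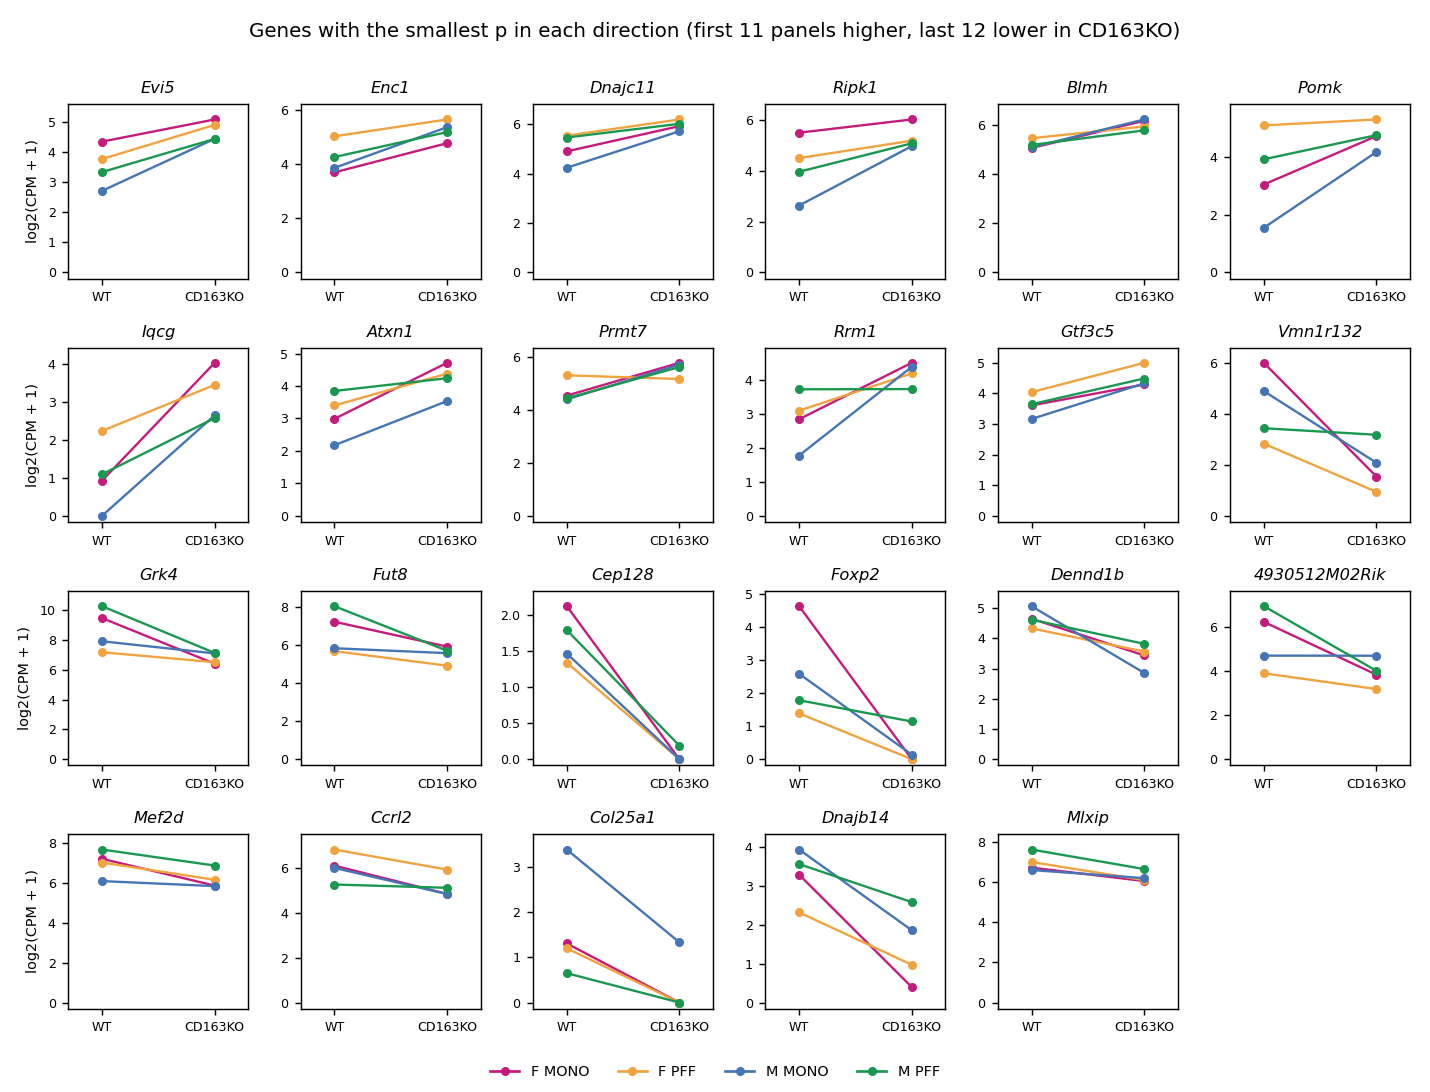
Levels as log2(CPM + 1) (y axes) of 11 genes with higher and 12 genes with lower values in CD163KO, those with the smallest p, with WT at the left and CD163KO at the right of each panel and 1 line per pair. In the first 11 panels CD163KO lies higher in every pair except for Prmt7 in F PFF (34.7 against 38.3 CPM), and in the last 12 it lies lower in every pair, for 4930512M02Rik in M MONO only by 24.7 against 24.8 CPM.

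A difference of at least 1 on the log2(CPM + 1) scale in all 4 pairs was reached by 5 genes in the direction of CD163KO (0.0443% of those tested) and by 4 in the direction of WT (0.0354%). The former were Iqcg, Bbs10 (a chaperonin-like protein of the Bardet-Biedl complex), Vopp1, 4930486L24Rik and Elac2 (the enzyme that trims the 3′ end of tRNAs). Elac2 was the most abundant, with 11.6, 17.6, 10.4 and 21.7 CPM in CD163KO and 4.73, 8.27, 0.168 and 10.2 in WT. The groups did not overlap, although the M PFF value of WT lay just under the lowest CD163KO value. The latter were Cep128, Ggct (an enzyme of glutathione turnover), Fgf12 (an intracellular fibroblast growth factor homologue that binds sodium channels) and Slc26a11 (an anion transporter). Slc26a11 stood at 0.272, 2.53, 4.24 and 2.61 CPM in CD163KO and at 4.82, 6.15, 10.5 and 10.6 in WT. Their unadjusted p-values in the edgeR test lay between 0.0138 and 0.0688, and most of these values are of a few CPM, where counting error is large. The set also depends on the pseudocount of 1. With 0.1 there were 15 higher and 25 lower genes, with 5 there were 0 and 0, and on log2(FPKM + 1) 1 and 0.

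Gene lists of microglial function were then described by the number of members on each side of 0 and by their median log2 fold change, beside 0.03 for all 11288 genes. Without TMM scaling, by library size alone, the median of all genes moved to 0.22 and on that scale the medians of the iron, homeostatic, disease-associated, interferon, MHC class I and II, scavenger, lysosomal and dendritic lists turned from below 0 to above it (0.01 to 0.18), each still under that of all genes. The choroid plexus list moved from 0.00 to 0.21, and the other list medians described here kept their sign. No member of any list had an adjusted p under 0.05 in edgeR (smallest 0.9996).

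Of the list of Cd163, haemoglobin and iron handling, 24 of 26 genes were tested, 9 above and 15 below 0, with a median of -0.12. Tfrc, the transferrin receptor, was the 1 member with an unadjusted p under 0.05 (log2 fold change -1.68 ± 0.74, SE, and -2.75 to -0.85 over the alternative settings). It measured 1.04, 6.20, 5.85 and 7.21 CPM in CD163KO and 15.8, 19.5, 14.9 and 7.17 in WT, so that 3 pairs were lower and the M PFF pair was level. Hmox1, the inducible haem oxygenase downstream of Cd163, measured 32.1, 23.4, 19.6 and 59.7 in CD163KO and 39.2, 33.5, 5.19 and 30.6 in WT, lower in both female pairs and higher in both male pairs. Fth1 and Ftl1, the subunits of ferritin, had log2 fold changes of -0.29 and -0.23, which turned to 0.18 and 0.54 without the M PFF pair. Heph, a ferroxidase, had too few counts to be tested, with 2, 0, 4 and 0 in CD163KO and 21, 0, 10 and 0 in WT.

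The 18 homeostatic genes of microglia had a median of -0.11, with 5 above and 13 below 0. Their medians within pairs were -0.03 in F MONO, -0.19 in F PFF, 1.21 in M MONO and -1.59 in M PFF, so the male pairs went opposite ways. P2ry12, the purinergic receptor that defines microglia, measured 3687, 2520, 10095 and 2469 CPM in CD163KO and 2317, 2164, 3423 and 29091 in WT. The only levels that stood apart were those of M-KO-MONO and M-WT-PFF. Sall1, the transcription factor of microglial identity, was the 1 member lower in every pair, at 373, 387, 312 and 416 in CD163KO and 574, 509, 446 and 531 in WT (log2 fold change -0.47 ± 0.33, SE, unadjusted p of the edgeR test 0.181). Its groups did not overlap. Without M-KO-MONO and M-WT-PFF the list's median was 0.03.

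Genes of the disease-associated state, 24 of 24 tested, had a median of -0.15, with 6 above and 18 below 0. Apoe, the lipid carrier of this state, had a log2 fold change of -0.82 ± 0.83 (SE), which rested on a level of 29274 CPM in M-WT-PFF against 1727 to 4265 in the other 7 libraries. Trem2, its lipid receptor, measured 1423 to 4141 CPM in CD163KO and 1330 to 5719 in WT. Lgals3, a galectin, was lower in each pair, at 12.8, 8.04, 2.32 and 9.40 in CD163KO and 15.4, 18.7, 7.54 and 20.6 in WT, and so were Lpl and Igf1, while Ch25h was higher in each pair. The medians of the pairs were -0.11, -0.09, 0.46 and -0.88, again split between the male pairs.

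**Figure D4:**
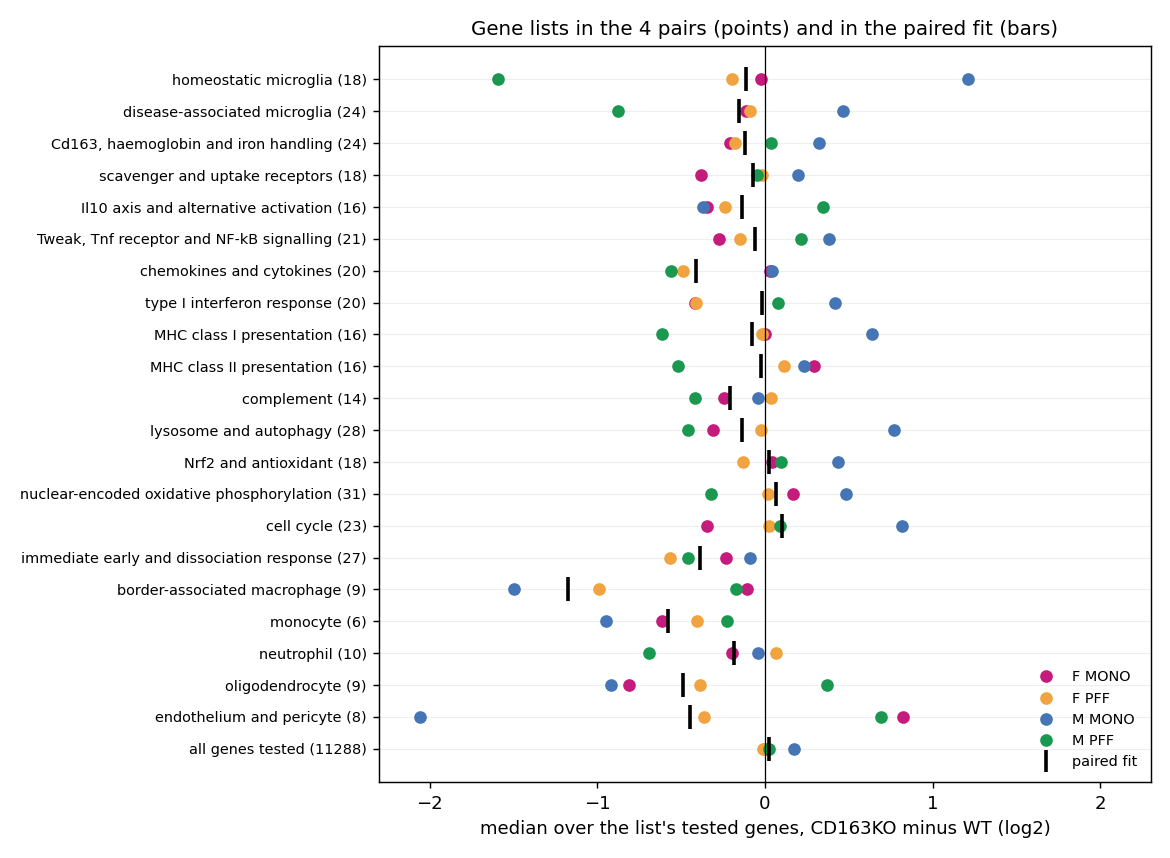
Median difference CD163KO minus WT on the log2(CPM + 1) scale (x axis) over the tested genes of each list (y axis, number of genes in brackets) in each pair (coloured points), with the median log2 fold change of the paired fit as a black bar. Homeostatic microglial genes reach from -1.59 in M PFF to 1.21 in M MONO, whereas the immediate early, border-associated macrophage and monocyte lists lie below 0 in all 4 pairs.

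The immediate early and dissociation genes, transcription factors and stress genes that cells induce within minutes of stimulation or tissue digestion, were the list with medians below 0 in every pair among those of microglial function. Its median was -0.39, with 5 above and 22 below 0, and the pairs gave -0.23, -0.57, -0.09 and -0.46. Zfp36, a protein that destabilises cytokine mRNAs, measured 370, 834, 352 and 950 CPM in CD163KO and 1174, 2037, 374 and 1587 in WT, lower in each pair (log2 fold change -0.95 ± 0.45, SE, unadjusted p of the edgeR test 0.0595). Junb, a subunit of AP-1, measured 93.0, 368, 77.6 and 537 in CD163KO and 576, 1173, 128 and 332 in WT, lower in 3 pairs and higher in M PFF. The differences of Junb were widest in females. Egr1 had a log2 fold change of -0.68 ± 0.38 (SE) and Fos one of -0.39 (unadjusted p of the edgeR test 0.104 and 0.347). In macrophages the median of this list was 0.03.

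Chemokines and cytokines had a median of -0.41 over 20 tested genes, 7 above and 13 below 0. Tnf, Pf4, Ccl4, Ccl5 and Il1a were lower in CD163KO in all 4 pairs, and 0 members were higher in all 4. Tnf measured 6.25, 29.5, 11.5 and 9.82 CPM in CD163KO and 28.0, 72.8, 15.2 and 13.4 in WT, with a log2 fold change of -1.08 ± 0.43 (SE) and an unadjusted p of 0.0312 in the edgeR test. The difference was largest in the female pairs, and the groups overlapped. Pf4, a chemokine of platelets and border-associated macrophages, measured 4.62, 3.71, 4.94 and 3.81 in CD163KO and 14.4, 9.15, 15.7 and 8.49 in WT, without overlap, at a log2 fold change of -1.44 ± 0.58 (SE). Il1b had a log2 fold change of -0.52 with all pairs and of 0.14 in the female pairs. The list's median was -0.37 without M-KO-MONO and M-WT-PFF and -0.01 in the female pairs alone.

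TWEAK, the ligand that Cd163 binds, signals through a TNF receptor family member to NF-κB, and of these genes 21 of 25 were tested, with a median of -0.06. Ripk1 was the 1 member higher in all pairs. The medians were below 0 in both female pairs (-0.27 and -0.15) and above 0 in both male pairs (0.38 and 0.22). Interferon-induced genes showed the same split, with -0.41 in each female pair and 0.42 and 0.08 in the males, and a pooled median of -0.01. Ifit1 and Ifi204 were lower in all 4 pairs, with log2 fold changes of -1.13 ± 0.87 and -0.74 ± 0.61 (SE). Whether these lists differ between the sexes was not tested.

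The remaining lists of microglial function had medians between -0.21 and 0.10. Nuclear-encoded oxidative phosphorylation had 25 of 31 genes above 0 but a median of only 0.06, and M PFF went the other way (-0.32). Complement had a median of -0.21 (3 above and 11 below 0), the Il10 axis and alternative activation -0.14 (4 and 12), lysosome and autophagy -0.14 (10 and 18), MHC class I presentation -0.08 (7 and 9), scavenger and uptake receptors -0.07 (6 and 12), MHC class II presentation -0.02 (8 and 8), Nrf2 and antioxidant genes 0.03 (10 and 8) and the cell cycle 0.10 (12 and 11). Without M-KO-MONO and M-WT-PFF the last 2 turned below 0, to -0.05 for Nrf2 and antioxidant genes and -0.10 for the cell cycle, which was -0.35 in the female pairs alone and 0.82 in M MONO. The same omission gave -0.07 for complement, -0.04 for the Il10 axis, -0.15 for the lysosome, -0.05 and -0.06 for MHC class I and II, -0.07 for scavenger receptors and 0.03 for oxidative phosphorylation. Of the lists described before, it gave -0.08 for iron handling, -0.10 for the disease-associated state, -0.32 for the immediate early genes, -0.27 for TWEAK and NF-κB signalling and -0.18 for the interferon response. Without the F MONO pair, which holds the library with Y-linked counts in the male range, the medians turned above 0 for iron handling (0.06), TWEAK and NF-κB signalling (0.04) and the Il10 axis (0.11). They moved to -0.24 for the disease-associated state and -0.15 for MHC class I, and were -0.41 for the immediate early genes and -0.40 for chemokines and cytokines, and each of the other lists of microglial function described here kept its sign. Cd80, a co-stimulatory ligand of T cells, was higher in all pairs, at 9.97, 14.9, 3.94 and 10.8 CPM in CD163KO and 3.75, 7.30, 3.02 and 2.26 in WT (log2 fold change 1.26 ± 0.68, SE, unadjusted p of the edgeR test 0.0946). Txnrd1 and Txn1, the thioredoxin system, were also higher in all pairs, with log2 fold changes of 0.77 ± 0.39 and 0.32 ± 0.31 (SE).

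Markers of other cells that a brain sort can hold had medians below 0 in several lists. Border-associated macrophage markers had 8 of 9 tested genes below 0 and a median of -1.18. The summed level of the 10 markers nevertheless ranged from 369 to 590 CPM in CD163KO and from 380 to 548 in WT, since Stab1, which microglia also express, made up most of it (327 to 561 CPM in CD163KO and 247 to 511 in WT). Mrc1, the mannose receptor of these macrophages, measured 8.38, 7.03, 6.16 and 10.1 in CD163KO and 18.0, 14.9, 48.9 and 7.55 in WT. Lyve1 was listed at 0 in M-KO-MONO. Monocyte markers had a median of -0.58 (5 of 6 below 0), and their summed level was 60.1 to 118 CPM in CD163KO and 78.7 to 198 in WT. Oligodendrocyte markers had a median of -0.49 (7 of 9 below 0), with summed levels of 131 to 252 and 168 to 344 CPM, and endothelial and pericyte markers one of -0.45 (5 of 8 below 0), with 31.4 to 83.6 and 44.5 to 124 CPM. The endothelial medians within pairs were 0.83, -0.36, -2.06 and 0.69, so that 2 of the 4 pairs went the other way. Neutrophil markers lay below 0 in 10 of 10 tested genes, with a median of -0.18 and summed levels of 459 to 1177 and 394 to 3067 CPM. That median did not keep its sign without M-KO-MONO and M-WT-PFF (0.16) or in the female pairs alone (0.02), and the pairs gave -0.19, 0.07, -0.04 and -0.69. The medians were -0.21 for dendritic cells (4 of 5 below 0), -0.21 for erythroid cells (5 of 5), 0.10 for astrocytes (4 of 9) and 0.00 for choroid plexus and ependyma (5 of 9), and 3 genes each could be tested for neurons and for T, NK and B cells. The astrocyte medians within pairs were nevertheless below 0, at -0.19, -0.01, -0.05 and -0.34.

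Single markers with an unadjusted p under 0.05 were Pf4, Mal (a myelin protein), Cldn5 (the tight junction protein of brain endothelium) and Mmp8 (a neutrophil collagenase). Mal measured 0.362, 4.59, 0.101 and 1.44 in CD163KO and 6.28, 7.77, 30.5 and 4.34 in WT, and Cldn5 measured 6.43, 17.3, 4.64 and 8.93 in CD163KO and 23.9, 23.8, 29.1 and 14.3 in WT. For Mrc1, Mal and Cldn5 the highest level was that of M-WT-MONO. Without the M-KO-MONO and M-WT-PFF libraries the border-associated macrophage median was -0.95, and in the female pairs alone -0.46. The same omission turned the dendritic cell median to 0.46 and that of choroid plexus to -0.10, and gave -0.74 for monocytes, -1.05 for oligodendrocytes, -0.28 for endothelium and pericytes, -0.52 for erythroid cells and 0.07 for astrocytes. Without the F MONO pair the medians were -1.29 for border-associated macrophages, -0.35 for neutrophils, -0.25 for oligodendrocytes, -0.07 for dendritic cells and -0.32 for astrocytes, the last 1 turned from above 0. The part of such cells in the lower values of Pf4 and the cytokines was not tested.

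**Figure D5:**
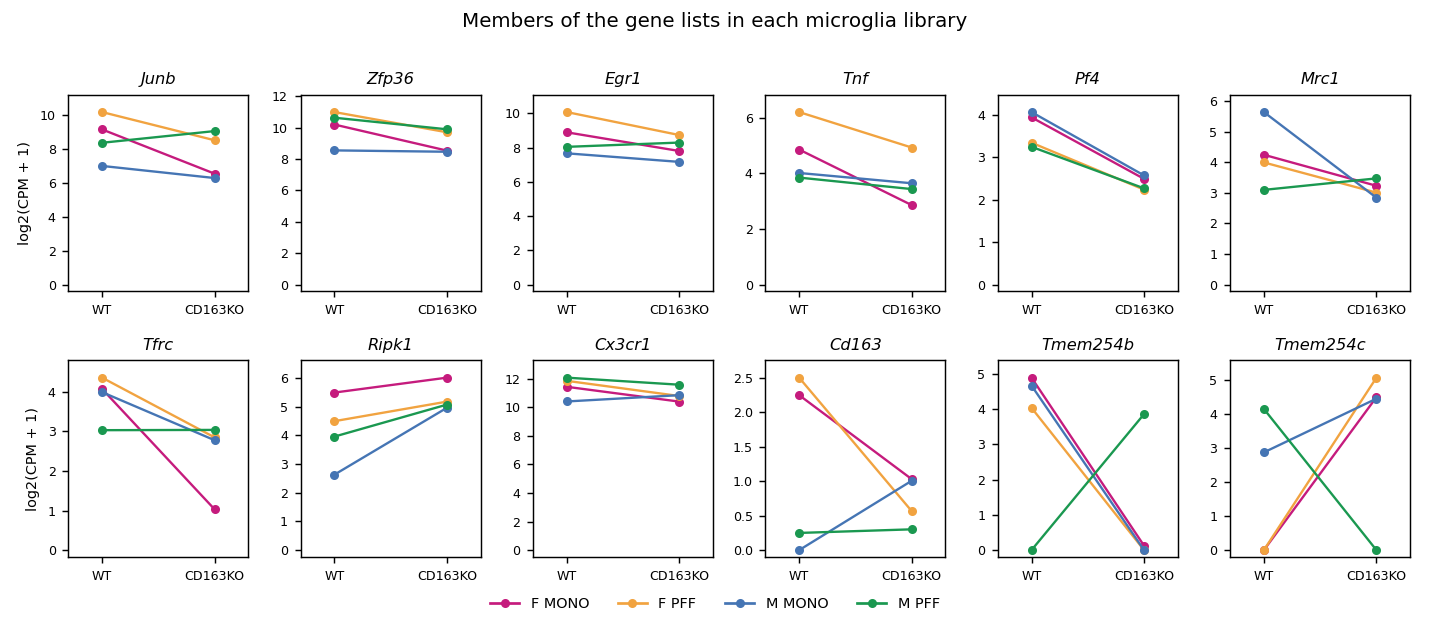
Levels as log2(CPM + 1) (y axes) of 12 members of the lists, with WT at the left and CD163KO at the right and 1 line per pair. CD163KO lies lower for Pf4 and Tnf in all 4 pairs and for Junb and Mrc1 in 3, whereas Tmem254b and Tmem254c go one way in M PFF and the opposite way in the other 3 pairs.

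For CD163KO against WT in female PFF microglia the study reported Ntf3, Lnx1 and Ptprcap as higher and Heph, Hs3st5 and Ccl22 as lower. It used triplicates, batch correction and removal of outliers, whereas there was 1 table per group here. All had too few counts in these tables, and 0 of 6 passed the filter. In F PFF, Ptprcap had 31 counts in CD163KO against 0 in WT and Lnx1 had 5 against 6. Ntf3, Ccl22, Heph and Hs3st5 were at 0 in both F PFF libraries. Counts in all pairs follow. Ptprcap, which encodes a partner of CD45, had 1, 31, 10 and 0 counts in CD163KO and 0 in each WT library. Lnx1, a ubiquitin ligase, had 6, 5, 2 and 4 counts in CD163KO and 14, 6, 3 and 3 in WT. Ntf3 was listed at 0 in all 8 libraries. Ccl22 had 94, 0, 2 and 41 counts in CD163KO and 0, 0, 0 and 4 in WT.

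Genes that share the neighbourhood of the knockout allele or differ between C57BL/6 substrains were looked at separately. Of the genes within 5 Mb of Cd163, 79 were tested, with a median of 0.02, 43 above and 36 below 0. Zfp384, a zinc finger protein, was the 1 of them with an unadjusted p under 0.05, at 17.7, 17.3, 5.35 and 20.1 CPM in CD163KO and 36.0, 23.2, 26.5 and 33.0 in WT, without overlap (log2 fold change -1.09 ± 0.43, SE). Of the substrain genes 10 of 15 were tested, with a median of 0.04. Nnt, the mitochondrial transhydrogenase that is truncated in C57BL/6J, was present in all libraries at 33.0 to 70.4 CPM. Entpd4b was higher in all pairs without overlap, at 37.4, 34.6, 26.9 and 31.7 in CD163KO and 13.6, 15.6, 18.3 and 25.1 in WT (log2 fold change 0.88 ± 0.37, SE, unadjusted p of the edgeR test 0.0401).

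Tmem254b and Tmem254c are near-identical copies of 1 gene, and reads were placed on 1 or the other. Tmem254b measured 0.0906, 0, 0 and 13.5 CPM in CD163KO and 28.6, 15.4, 24.4 and 0 in WT, and Tmem254c 21.3, 32.2, 20.7 and 0 in CD163KO and 0, 0, 6.28 and 16.6 in WT. In 3 pairs CD163KO thus held mainly Tmem254c and WT mainly Tmem254b, and in M PFF it was the reverse. The sum over Tmem254a, b and c was 21.4, 32.2, 24.6 and 13.5 in CD163KO and 32.3, 15.4, 31.2 and 16.6 in WT, with overlap. In macrophages the fitted log2 fold changes were 2.45 for Tmem254b and -3.42 for Tmem254c, opposite in sign to microglia (-7.01 and 3.97), so the values of the single copies are uncertain.

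Whether the genotype difference itself differed by sex, injection or cell population was tested by interaction terms. For sex, edgeR called 0 of 11288 genes (0%), with 299 at an unadjusted p under 0.05, and DESeq2 called 10. These 10 include the Y-linked gene Ddx3y, with 421 counts in F-KO-MONO and 2 in F-WT-MONO, and Gh, a pituitary hormone transcript that was high in single libraries. They also include Car12, a carbonic anhydrase, with 0 CPM in both female CD163KO libraries and 21.0 and 5.78 in the female WT libraries, against 1.72 and 3.77 in the male CD163KO and 0.921 and 2.26 in the male WT libraries. For MONO against PFF, edgeR called 0 (0%), with 308 at an unadjusted p under 0.05, and DESeq2 called 19. For microglia against macrophages over all 16 libraries, where M-KO-MONO and M-WT-PFF stand apart in both populations, edgeR called 0 of 12412 genes (0%), with 139 at an unadjusted p under 0.05, and DESeq2 called 7. In macrophages alone, edgeR called Cd163 and no other of 10601 genes (0.00943%), with 28 at an unadjusted p under 0.05, and DESeq2 called 5 genes. Among the 24 genes nearest to a call in microglia, 2 had an unadjusted p under 0.05 for the interaction with the population (smallest adjusted p 1 in edgeR).

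In the female pairs alone, a comparison added after seeing the data because both libraries that stand apart are male, edgeR called 80 of 12064 genes, 31 higher in CD163KO (0.257%) and 49 lower (0.406%). The smallest adjusted p of this edgeR fit (2.39e-07) was that of Tmem254c among the 31, and Tmem254b was among the 49. The values of these near-identical copies are uncertain, as described above. This fit had 1 residual degree of freedom and 1 of its 4 libraries carried Y-linked counts in the male range, and without that library's pair a single pair is left, which allows no test. The lower genes included the immediate early genes Junb (adjusted p 3.55e-06), Zfp36 (0.000119), Jun (0.00037) and Egr1 (0.00277), and Tnf (0.033), at edgeR log2 fold changes of -2.15, -1.48, -1.41, -1.22 and -1.73. They also included Cx3cr1, the fractalkine receptor of microglia, at 1346 and 1767 CPM in the female CD163KO libraries and 2765 and 3693 in the female WT libraries (edgeR adjusted p 0.00373). Siglec1, a sialic acid receptor of macrophages, had 0 and 0.0437 CPM in CD163KO females against 11.8 and 9.24 in WT females. Foxp2, Vmn1r132 and Mef2d, 3 of the 12 lower genes described above, were among the 49 as well, with edgeR adjusted p of 0.00277, 0.00119 and 0.0448. So was the myelin gene Mbp, at 27.4 and 75.5 CPM in the female CD163KO and 85.7 and 147 in the female WT libraries, and the oligodendrocyte markers had a median of -1.30 in this fit against -0.49 with all pairs. The part of such cells in the female calls was not tested.

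Some of the 31 higher genes were most abundant in the libraries that stand apart. Ubb, a ubiquitin gene, measured 5170 and 4138 CPM in CD163KO females and 1965 and 1980 in WT females, against 75624 in M-KO-MONO and 102910 in M-WT-PFF, and Calm2, a calmodulin gene, 1988 and 1169 against 789 and 644, with 11032 and 13053 in those libraries. The male pairs did not repeat this list. Of the 31 higher genes, 20 had the same direction in M MONO and 0 in M PFF, and of the 49 lower genes 27 and 13, with 7 in both and 16 opposite in both. The interaction with sex was called for 0 of all genes by edgeR and for 10 by DESeq2, of which Car12 is among the 49 lower genes, so these counts alone do not show a difference between the sexes.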

How the data were processed

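RNA of sorted microglia was sequenced by SMART-seq2. Per the methods and the submitters' notes, the authors mapped reads with Bowtie2 and estimated expression with RSEM on mm10, and used DESeq2 for their own tests. The deposited tables list RefSeq transcripts with an estimated count (expected count, not normalized) and an FPKM made by the authors with RSEM, and transcripts that a table does not list were taken as 0. Of 27787 transcripts, 27632 were given a symbol from the RefSeq table of GRCm38.p6 and summed to 18580 genes. Counts were rounded to whole numbers.

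The fit used edgeR 4.0.16 (R 4.3.3) with TMM scaling, filterByExpr (minimum count 10), the pair of sex and treatment as a term, robust quasi-likelihood estimates and Benjamini-Hochberg adjustment over all genes tested. DESeq2 1.42.0 and limma 3.58.1 served as alternatives, limma also on log2(FPKM + 1). Differences within pairs are on the log2(CPM + 1) scale, so they understate the change of low genes, and the fold of a gene with 1 to 3 counts in a group carries a counting interval. PCR copies are counted as separate reads. Python 3.11.15, pandas 2.3.3, numpy 2.4.6, scipy 1.17.1 and matplotlib 3.10.9 were used. The procedure was also run on simulated counts in which neither the pairs nor the composition of the libraries differed. That run therefore does not cover these features of the data.

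Genes are named when they are Cd163, among the 12 with the smallest p in either direction, past 1 in all pairs, within 5 Mb of Cd163, or members of a list that is described. A few of the genes so selected were left out of the text. The comparison, the lists and the tests were chosen with earlier results of these data known. Libraries of 1 genotype came from different sexes and injections, so p-values of the paired fits measure the spread between pairs. The permutation p of Cd163 does not, since it ignores the pairs. Macrophage libraries enter only as the nearest comparison. The alternatives were other scalings (RLE, upper quartile, library size), no filter or a stricter one, no pair term, additive terms for sex and treatment, pseudocounts of 0.1 and 5, and leaving out pairs.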

Additional observations from a re-analysis of the deposited data

Results flagged for a closer look

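In 12 of the 68 groups of 4 libraries examined, 1 library lay far from the other 3, where chance gives about 1 in 20 for independent, normally distributed values. M-KO-MONO (55.0% of counts in 20 genes, 18.3% in Cst3) and M-WT-PFF (67.7% and 19.7%) account for 4 of them. Among genes with higher values in CD163KO, the library far from its group was F-KO-MONO for Ripk1 (63.5 CPM), F-WT-PFF for Prmt7 (38.3) and F-KO-PFF for 4930486L24Rik (5.85). Among genes with lower values, it was M-KO-PFF for Cep128 (0.140) and for Foxp2 in CD163KO (1.21), F-WT-MONO for Foxp2 in WT (24.0), M-KO-MONO for Col25a1 in CD163KO (1.51) and M-WT-MONO for Col25a1 in WT (9.38). For the genes with zeros in most libraries of a group, a single library with counts is enough for this. The groups are also not independent, and many of the genes were chosen from these data. No excess over the rate of 1 in 20 can therefore be read from the 12.

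The library labelled female CD163KO MONO held 799 Y-linked counts, against 0 to 2 in the other libraries labelled female and 434 to 1997 in the male ones.

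Among the lists of microglial function with at least 10 tested genes, the medians that went one way in one set of pairs and the opposite way in the other were those of Cd163, haemoglobin and iron handling (-0.207 in F MONO, -0.179 in F PFF, 0.323 and 0.0369 in the males), the interferon response (-0.415 and -0.409 in females, 0.42 and 0.0798 in males) and Tweak, TNF receptor and NF-κB signalling (-0.275 and -0.148 in females, 0.38 and 0.217 in males). By injection they were MHC class I presentation (0.000698 and 0.641 with MONO, -0.0199 and -0.617 with PFF) and chemokines and cytokines (0.0274 and 0.0418 with MONO, -0.488 and -0.563 with PFF). Among the marker lists, that of dendritic cells, with 5 tested genes, split the same way (0.184 and 0.951 with MONO, -0.31 and -0.288 with PFF). None of these differences was tested, and each side rests on 2 pairs.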

How the results depend on the processing

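The count of called genes was 0 and stayed at 0 under limma-voom, limma on FPKM, RLE, upper-quartile and library-size scaling, a stricter filter, no pair term, additive terms and without both MONO pairs. It was 1 with DESeq2 (Foxp2) and 1 without the filter (Tmem254b), ranged from 0 to 1 when 1 pair was left out (Tmem254b without M PFF), and was 80 without both male pairs, an alternative added after seeing the data that leaves 1 residual degree of freedom. DESeq2 gave 10 genes for the interaction with sex, 19 for that with treatment, 5 in macrophages and 7 for the interaction with the population, against 0, 0, 1 and 0 in edgeR. The cause was not tested. Genes past 1 in all pairs numbered 5 higher and 4 lower, 15 and 25 with a pseudocount of 0.1, 0 and 0 with 5, 1 and 0 on FPKM, and 134 and 297 in the female pairs only, where 3252 and 3314 genes shared a direction. On FPKM 59 genes were lower in every pair, in place of 389, and 449 higher, in place of 517; the median of all genes is above 0 on that scale (0.17). Of the values of single named genes under the alternatives, 1103 kept their direction and their side of the threshold, 13 passed it (10 of them without both male pairs), and 3 changed sign without having been called. Many of these genes were chosen by their p or their shared direction in the same libraries, so a kept direction is partly fixed by that choice. Fth1 ranged from -0.65 to 0.18 and Ftl1 from -0.90 to 0.54 when 1 pair was left out, positive without M PFF, and Il1b was 0.14 without both male pairs. No paired analysis by replicate number was possible because the labels carry no replicate numbers; the pair of sex and treatment is in the fit itself. With 4 pairs of libraries, 2 of them holding a library of another composition, small differences were not detectable.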

Other observations

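Pituitary hormone transcripts, which microglia are not known to make, appeared in single libraries. Growth hormone (Gh) measured 0.136, 0.786, 9.08 and 76.5 CPM in CD163KO and 0.0816, 21.6, 0.0838 and 0 in WT, in the order F MONO, F PFF, M MONO, M PFF. Prolactin (Prl) reached 8.61 CPM in M-KO-PFF and 34.8 in F-WT-PFF and at most 0.606 in the other 6 libraries. The libraries with these transcripts were of both genotypes and both sexes, and 2 of the 8 pituitary markers had enough counts to be tested.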
